A study of Mus musculus with 6 samples.

Results

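The Ras to ERK pathway carries signals from the T cell receptor, cytokine receptors and growth factor receptors through a chain of kinases to the nucleus. Cells that use it also switch on its own brakes: the Sprouty and SPRED proteins act on Ras and Raf at the membrane, and the DUSP phosphatases strip the activating phosphates from MAP kinases. Etv4 and Etv5, ETS transcription factors of the PEA3 group, are induced by the same signal, so the messages of these genes are widely read as its transcriptional output. In mouse CD4 T cells Etv5 is also known as a factor that promotes the Th17 programme. Measured here were 10 such genes, namely the transcription factor genes Etv5 and Etv4, the Sprouty genes Spry1, Spry2 and Spry4, the SPRED genes Spred1 and Spred2, and the phosphatase genes Dusp4, Dusp5 and Dusp6. They were 10 of the 22180 genes that had a probe set with a single symbol.

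The genes were chosen by symbol, with the Tc17 against Tc1 differences of these arrays already known, so those differences are given as a description and support no test. All 10 had a probe set, and Etv5 and Dusp6 had 2 each, which made 12 probe sets. A gene's value is that of its brightest probe set over the 6 arrays.

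RNA came from mouse splenic CD8+ T cells that were sorted as naive cells and stimulated with antibodies to CD3 (1 µg/ml) and CD28 (3 µg/ml) over 4 days. Tc17 cultures, which make IL-17, received IL-6 and TGF-beta for 3 of those days. Tc1 cultures, which make interferon-gamma, received IL-12 for the same 3 days, and both groups spent 1 further day in IL-2. No unstimulated cells and no culture with IL-2 alone were among the 6 arrays, and the labels give no strain, sex or age. Each group held 2 biological samples, and sample 2 of each was also run on a technical array whose values were averaged with it before any fit. The labels do not say whether the samples came from separate animals or cultures, so p-values measure the spread between these samples only, and the number of arrays limits their precision.

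The cell labels were borne out by their markers. The T cell markers Cd3d, Cd3e, Cd3g, Cd28 and Cd5 and both CD8 chains, 7 of 9 markers measured, had group means from 10.71 to 13.05 in Tc17 and from 10.71 to 12.92 in Tc1 (RMA log2 intensity, a probe set's brightness after the authors' normalization). Il17f, Il17a and Ahr rose and Ifng, Tbx21 and Prf1 fell in Tc17 (limma adjusted p at most 0.05), and the array medians were 6.04 to 6.09. Among markers of other cells, the macrophage gene Lyz2 averaged 8.97 ± 0.30 in Tc17 and 5.44 ± 0.00 in Tc1 (log2, SD, n = 2), and the endothelial gene Pecam1 10.60 ± 0.08 in Tc17 and 9.83 ± 0.03 in Tc1. The summed linear intensity of the 6 macrophage markers measured of 7 listed ran from 1578 to 1803 in Tc17 and from 1091 to 1556 in Tc1, and that of the 4 stromal and endothelial markers from 1776 to 1949 in Tc17 and from 1155 to 1238 in Tc1. Cd68 averaged 9.85 ± 0.05 in Tc17 and 9.99 ± 0.41 in Tc1. With Csf1r and Itgam, 4 of the 6 macrophage markers had Tc17 means above the highest array median, and Adgre1 and Cd14 were below all array medians in Tc17 and in Tc1. The B cell marker Cd79b averaged 10.32 ± 0.10 in Tc17 and 9.80 ± 0.15 in Tc1, 2 of the 5 B cell markers had means above the highest array median in each group, and their summed linear intensity ran from 1430 to 1563 in Tc17 and from 1052 to 1177 in Tc1. Ms4a1, another defining B cell gene, was below all array medians, as was Cdh5 of endothelial cells. In each group 3 of the 4 stromal and endothelial markers had means above the highest array median. Col1a1 averaged 7.11 in Tc17 and 7.15 in Tc1, and Col3a1 6.69 in both. Of 3 CD4 T cell markers 2 were above it in each group, Zbtb7b (7.78 in Tc17, 7.91 in Tc1) and Cd4 (6.99, 7.05). Among 3 NK cell markers measured, 1 was, Eomes (6.40 in Tc17, 7.58 in Tc1). The other NK cell markers, Ncr1 (5.02 in Tc17, 5.01 in Tc1) and Klrb1c (4.05, 4.01), were below all array medians. Of 5 dendritic cell markers 1 had a mean above the highest array median in Tc17 and 0 in Tc1. Whether such other cells were present, and what part they had in the results below, was not tested.

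Start-site sequences were at hand for 7 of the 10 genes in RefSeq's table for GRCm38.p6 (8 windows of 300 bases, 250 before and 50 after the start). The windows of Etv5 (chr16:22439521-22439820, minus strand), Spry1 (chr3:37639697-37639996, plus strand) and Dusp6 (chr10:99262981-99263280, plus strand) are shown because these genes were among the 4 with the lowest Tc17 minus Tc1 differences. That of Dusp5 (chr19:53528895-53529194, plus strand) is shown for its paired CArG boxes, the motif that serum response factor binds. Capitals mark every ETS core, GGAA or its complement TTCC, and every CArG box.
Etv5: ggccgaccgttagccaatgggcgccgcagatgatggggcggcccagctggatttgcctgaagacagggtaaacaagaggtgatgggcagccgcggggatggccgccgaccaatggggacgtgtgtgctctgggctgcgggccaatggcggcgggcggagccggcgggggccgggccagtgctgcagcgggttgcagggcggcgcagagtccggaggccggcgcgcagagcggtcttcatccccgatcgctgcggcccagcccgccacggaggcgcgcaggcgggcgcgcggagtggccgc
Spry1: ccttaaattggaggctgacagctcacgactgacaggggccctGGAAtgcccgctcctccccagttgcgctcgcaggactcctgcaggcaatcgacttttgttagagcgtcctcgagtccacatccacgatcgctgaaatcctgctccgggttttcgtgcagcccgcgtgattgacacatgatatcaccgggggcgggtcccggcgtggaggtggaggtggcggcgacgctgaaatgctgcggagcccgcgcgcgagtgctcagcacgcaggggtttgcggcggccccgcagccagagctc
Dusp6: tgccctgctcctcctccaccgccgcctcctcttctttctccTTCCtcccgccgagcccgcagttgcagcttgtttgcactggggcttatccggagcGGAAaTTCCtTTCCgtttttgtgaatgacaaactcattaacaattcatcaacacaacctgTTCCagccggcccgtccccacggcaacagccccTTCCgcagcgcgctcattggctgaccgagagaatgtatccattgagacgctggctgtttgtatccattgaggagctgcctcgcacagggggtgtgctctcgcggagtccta
Dusp5: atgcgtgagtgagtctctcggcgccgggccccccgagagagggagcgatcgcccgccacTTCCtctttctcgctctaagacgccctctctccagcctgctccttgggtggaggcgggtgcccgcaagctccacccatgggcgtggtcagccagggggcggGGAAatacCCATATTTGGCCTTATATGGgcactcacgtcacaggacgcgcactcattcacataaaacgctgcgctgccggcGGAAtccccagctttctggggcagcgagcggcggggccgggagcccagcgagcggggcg

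The windows differed in these letters. The Etv5 window held 0 ETS cores, whereas a further Etv5 window, at a start lower on the chromosome, held 6, and Spry1 held 1, Dusp6 held 6 and Dusp5 held 3. At least 1 ETS core was found in 96% of all 32851 windows, with a median of 3, so a core in a window is common. The CArG boxes of Dusp5, at bases 169 and 179 of the window, stand end to end in 1 run of capitals and end 72 and 62 bases before the start. Any CArG box was found in 1.63% of all windows and in no other window of the genes described. On both strands the 8 windows held no long ETS site (CCGGAAG, in 8.86% of all windows), no AP-1 site (TGANTCA, 7.81%), no CRE (TGACGTCA, 1.79%) and no STAT site (TTCNNNGAA, 8.3%). These motifs overlap in places, since every long ETS site holds a core. All 8 windows were richer in G and C, at 57% to 74%, than the median window at 52.7%.

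**Figure D1:**
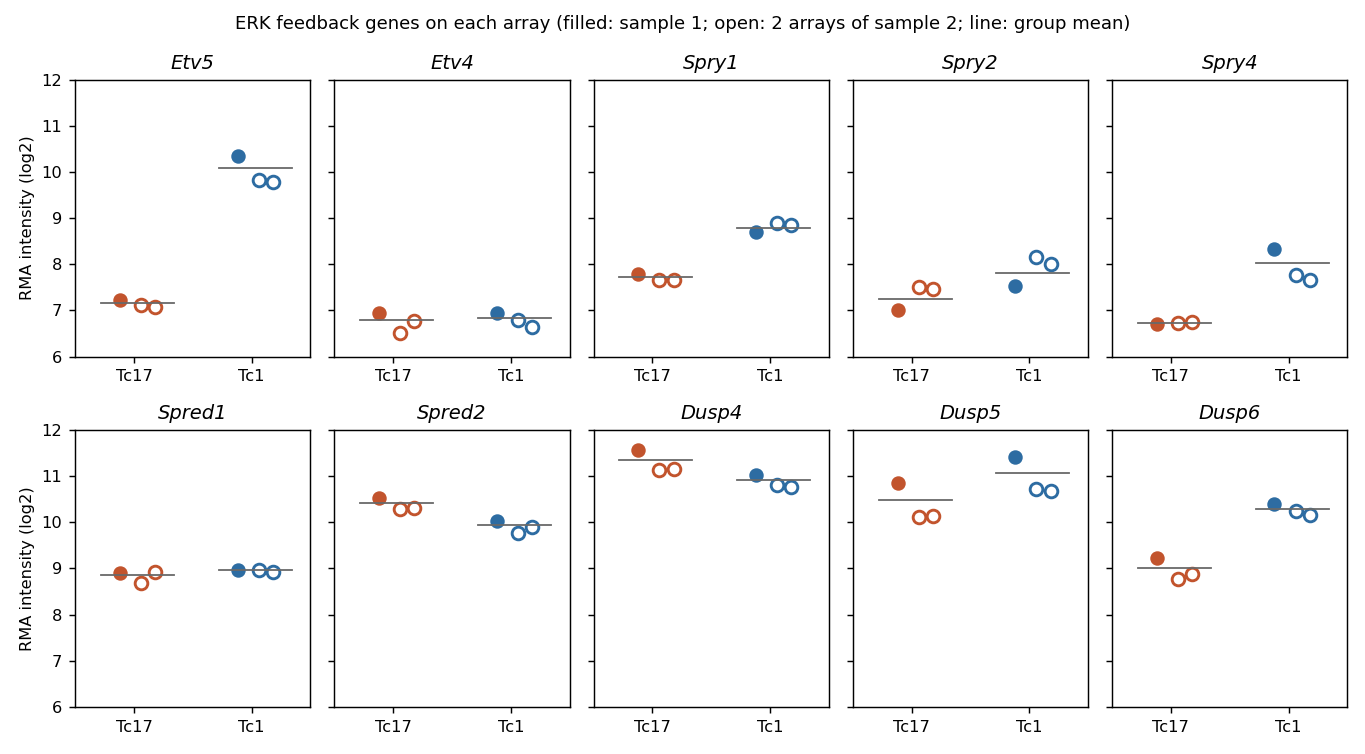
RMA log2 intensity (y axis) of the brightest probe set of each of the 10 genes, Tc17 left and Tc1 right in each panel. The filled point is sample 1, the open points are the biological and technical arrays of sample 2, and the line is the mean of the 2 samples. Etv5 has the widest space between the groups, 2.56 on the log2 scale, and Etv4 and Dusp5 overlap.

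Etv5 stood out among the 10 genes. It read 7.23 in Tc17 sample 1 and 7.12 and 7.08 on both arrays of Tc17 sample 2, against 10.34 in Tc1 sample 1 and 9.83 and 9.79 on the arrays of Tc1 sample 2. Every Tc17 array lay below every Tc1 array, with 2.56 between the nearest arrays of the groups. The group means were 7.16 ± 0.09 in Tc17 and 10.08 ± 0.37 in Tc1 (log2, SD, n = 2), a difference of −2.91 ± 0.19 (SE), or 7.54-fold lower in Tc17. Of all 22180 genes, 0.0812% had a lower difference, which placed Etv5 at rank 19 from the bottom. As RNA was taken from whole cultures, fewer cells with the message and less message per cell cannot be told apart.

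The other Etv5 probe set was dimmer and differed less. It measured 6.15, 6.19 and 6.08 on the Tc17 arrays, in the order above, against 6.84, 6.48 and 6.46 on the Tc1 arrays. The groups did not overlap, but the difference was −0.52 ± 0.14 (SE), and its Tc17 values were about those of the array medians. With the mean of both probe sets in place of the brighter, the difference was −1.72.

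Etv4, a close relative of Etv5, showed no such space between the groups. It read 6.94 in Tc17 sample 1 and 6.51 and 6.77 on both arrays of Tc17 sample 2, against 6.95, 6.80 and 6.64 in Tc1. The groups overlapped, and the difference of −0.04 ± 0.14 (SE) was smaller than the gap of 0.26 between the biological and technical arrays of Tc17 sample 2. The sign turned to 0.07 without Tc1 sample 1 and 0.11 without Tc17 sample 2. No array gives a detection call, so it is not known whether Etv4 was above background in either group.

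The Sprouty genes encode inhibitors that act between activated receptors and Raf. All 3 measured had lower means in Tc17. Spry1 read 7.78 in Tc17 sample 1 and 7.67 on each array of Tc17 sample 2, against 8.70 in Tc1 sample 1 and 8.89 and 8.85 on the arrays of Tc1 sample 2. Its samples lay close together within each group, at 7.73 ± 0.08 in Tc17 and 8.78 ± 0.12 in Tc1 (log2, SD, n = 2). The difference was −1.06 ± 0.10 (SE), 2.08-fold lower, and ran only from −1.14 to −0.97 over the alternatives.

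Spry4 read 6.71 in Tc17 sample 1 and 6.73 and 6.74 on both arrays of Tc17 sample 2, against 8.33, 7.76 and 7.66 in Tc1. The Tc17 arrays were nearly level, while Tc1 sample 1 stood 0.61 above Tc1 sample 2. The difference was −1.30 ± 0.21 (SE), 2.46-fold lower, and it was −0.99 without Tc1 sample 1 and −1.60 without Tc1 sample 2. Its Tc17 values lay little above the array medians, and the fold is one of intensities.

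Spry2 differed less, and its samples differed more. It read 7.01 in Tc17 sample 1 and 7.50 and 7.46 on both arrays of Tc17 sample 2, against 7.54, 8.16 and 8.00 in Tc1. The highest Tc17 array was only 0.04 below the lowest Tc1 array, and sample 1 was below sample 2 in both groups. The difference of −0.57 ± 0.25 (SE) was about as wide as the gap between samples within a group, 0.47 in Tc17 and 0.54 in Tc1. It was −0.84 without Tc1 sample 1 and −0.80 without Tc17 sample 2, and −0.30 without Tc1 sample 2 and −0.33 without Tc17 sample 1.

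The SPRED genes encode relatives of Sprouty that bring the Ras inhibitor neurofibromin to the membrane. Spred1 read 8.91 in Tc17 sample 1 and 8.68 and 8.92 on both arrays of Tc17 sample 2, against 8.97, 8.97 and 8.93 in Tc1. The groups were 0.01 apart at their nearest arrays, less than the 0.23 between the arrays of Tc17 sample 2, and the difference was −0.10 ± 0.08 (SE). Spred2 ran the other way. It read 10.53 in Tc17 sample 1 and 10.29 and 10.32 on both arrays of Tc17 sample 2, against 10.03, 9.78 and 9.89 in Tc1. Every Tc17 array was above every Tc1 array, with a difference of 0.48 ± 0.12 (SE), 1.40-fold higher in Tc17, and it ran from 0.37 to 0.59 over the alternatives.

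The phosphatase genes differed in direction. Dusp6, which encodes an ERK-specific phosphatase of the cytoplasm, read 9.22 in Tc17 sample 1 and 8.77 and 8.87 on both arrays of Tc17 sample 2, against 10.40, 10.24 and 10.16 in Tc1. The groups were 0.94 apart at their nearest arrays, and the difference was −1.28 ± 0.16 (SE), 2.43-fold lower in Tc17. Its other probe set read 4.93, 4.94 and 4.92 on the Tc17 arrays and 5.18, 4.95 and 4.98 on the Tc1 arrays. All of these were below every array median, and their difference was −0.15 ± 0.10 (SE), so that probe set shows little about Dusp6, and the mean of both gave −0.71.

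Dusp5, which encodes the ERK-specific phosphatase of the nucleus, read 10.85 in Tc17 sample 1 and 10.12 and 10.13 on both arrays of Tc17 sample 2, against 11.42, 10.72 and 10.68 in Tc1. Here the samples of a group lay farther apart than the groups: sample 1 was above sample 2 by 0.73 in Tc17 and by 0.72 in Tc1. The difference of −0.57 ± 0.34 (SE) was −0.21 without Tc1 sample 1 or Tc17 sample 2, and −0.93 without Tc1 sample 2 or Tc17 sample 1. Dusp4, whose nuclear phosphatase acts on ERK and on the JNK kinases, was higher in Tc17. It read 11.56 in Tc17 sample 1 and 11.13 and 11.15 on both arrays of Tc17 sample 2, against 11.02, 10.82 and 10.76 in Tc1. The arrays did not overlap, by 0.11, and the difference was 0.44 ± 0.17 (SE), with 0.23 without Tc17 sample 1 and 0.65 without Tc17 sample 2.

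**Figure D2:**
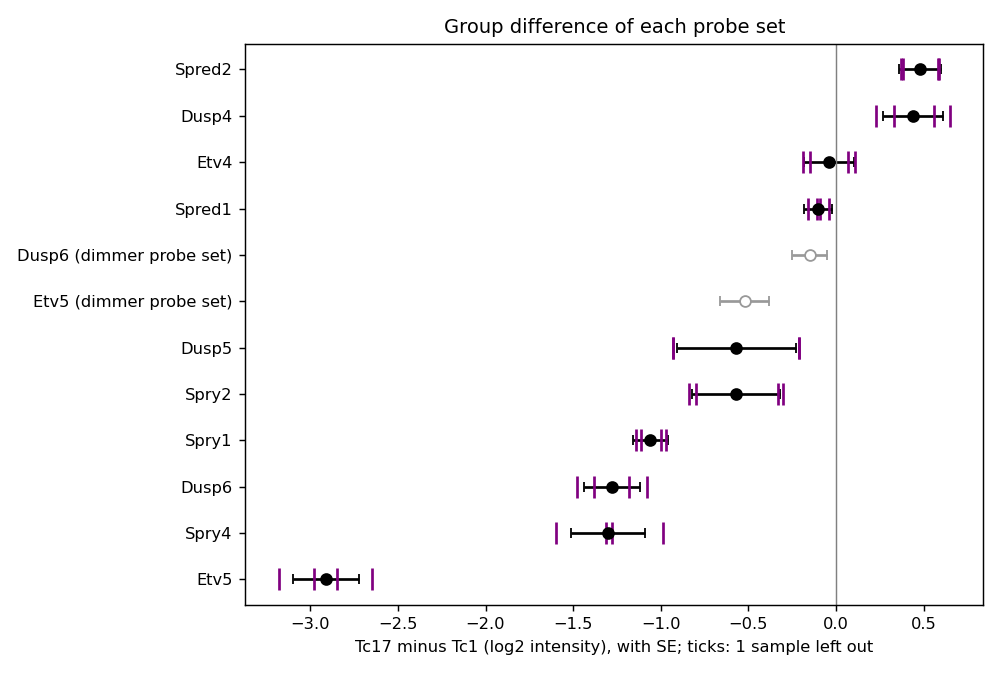
Tc17 minus Tc1 difference in log2 intensity (x axis) of all 12 probe sets of the 10 genes, highest at the top, with the SE of limma's fit as a bar. Purple ticks are the differences with each of the 4 biological samples left out in turn, and grey marks are the dimmer probe sets of Etv5 and Dusp6. Etv5 stands alone at −2.91, Spry4, Dusp6 and Spry1 lie between −1.30 and −1.06, and the ticks of Dusp5 spread from −0.93 to −0.21.

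Across the 10 genes, 8 differences were below 0 and 2 above, with a median of −0.57, against −0.013 over all genes. At least a 2-fold lower intensity in Tc17 was found for 4 of the 10, Etv5, Spry4, Dusp6 and Spry1, and for 0.897% of all genes, and at least a 2-fold higher intensity for 0 of the 10 and for 1.16% of all genes. In 6 genes the 3 Tc17 arrays lay below the 3 Tc1 arrays, which 14.5% of all genes did, and in 2 they lay above, which 15.2% did. In limma's moderated test, adjusted by Benjamini-Hochberg across the 41345 probe sets, 2 of the 10, Etv5 and Spry1, passed an adjusted p of 0.05, both lower in Tc17. That threshold was passed by 1.58% of all genes, 0.591% lower and 0.992% higher. As the genes were chosen on this contrast, nothing is read from these shares. The number past the threshold was 1 (Etv5) without Tc1 sample 1 or without Tc1 sample 2, and 0 without Tc17 sample 1 or without Tc17 sample 2, where 4 and 7 of the 10, and 8.51% and 11.1% of all probe sets, had an unadjusted p under 0.05 in limma's test.

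Every array of the 10 brightest probe sets was above every array median. The biological and technical arrays of sample 2 differed by a median of 0.043 over the 20 gene and group pairs, and by at most 0.26. The differences of Etv5, Spry4, Dusp6 and Spry1 were thus each wider than any gap between arrays of 1 sample, and wider than the gap between samples 1 and 2 in either group, at most 0.61 (Spry4 in Tc1).

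**Figure D3:**
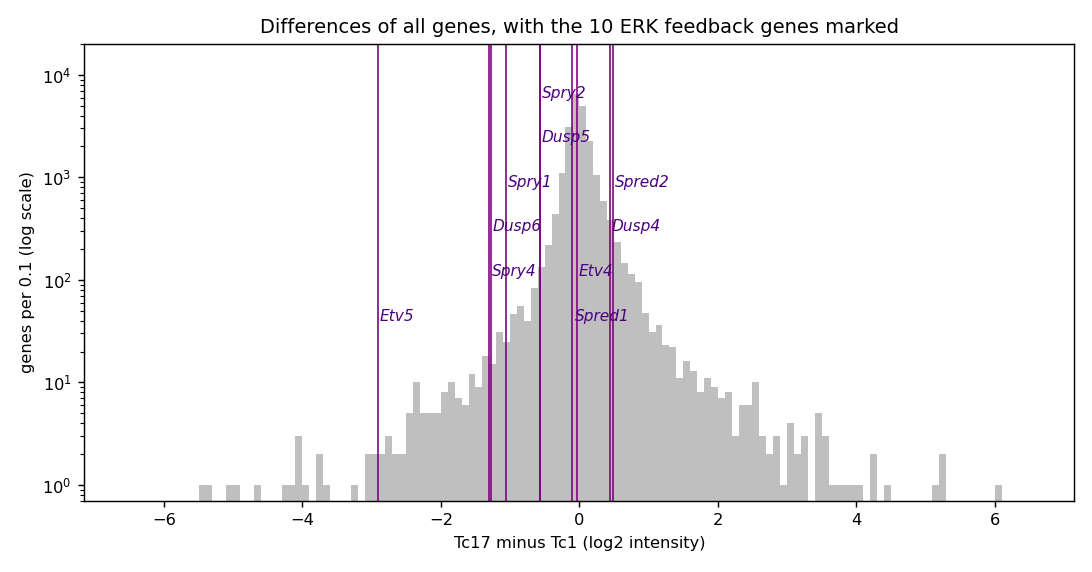
Number of genes per 0.1 of difference (y axis, log scale) by Tc17 minus Tc1 difference in log2 intensity (x axis) for all 22180 genes in grey. Purple lines mark the 10 ERK feedback genes. Etv5 lies in the far lower tail, Spry4, Dusp6 and Spry1 in the shoulder below −1, and Etv4 and Spred1 near the centre.

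Likeness to Etv5 was measured over the 6 arrays as the root mean square difference of log2 values, each gene centred on its own mean. Genes with provisional symbols, such as Gm and Rik names, were not ranked. The nearest genes were Tbx21 (0.181), which encodes T-bet, the type 1 lineage factor, then Prss35 (0.205), Ms4a6d (0.220), Prag1 (0.252) and Utf1 (0.300). Tbx21 averaged 8.60 in Tc17 and 11.39 in Tc1, a log2 difference of −2.79 beside the −2.91 of Etv5. Prss35 (5.69) and Ms4a6d (5.47) were below every array median in Tc17, so their differences hold for intensities. The nearest genes to Spred2, the member with the highest difference, were Slc25a26, Zfp449, Cd79b, Rsu1 and Nf2, at 0.037 to 0.043, and their differences ran from 0.44 to 0.52. With 4 samples in 2 groups, any gene with a similar group difference lies near.

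The genes are scattered over 9 chromosomes, with Etv4 and Spred2 both on chromosome 11. None of the 20 measured protein-coding genes next to them in the RefSeq order passed limma's test, and 5 of them had an unadjusted p under 0.05, as did 13.3% of all probe sets. Beside Etv5, Tra2b and Crygs had log2 differences of −0.13 and −0.04 (limma adjusted p = 0.657 and 0.896). The widest difference among the 20 was that of Arhgap26 next to Spry4, at −1.21 ± 0.28 (SE, limma adjusted p = 0.185).

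Around these genes, 10 lists of the pathway, with 134 measured genes, gave 4 genes that rose and 2 that fell in limma's test, beside 0.992% of all genes that rose and 0.591% that fell. Their median log2 difference was 0.06, beside −0.57 for the 10 feedback genes. As those 10 were chosen on this contrast, nothing is read from the space between the medians. Among the cascade from Ras to ERK 0 of 13 measured genes passed (unadjusted p under 0.05 for 1 higher and 2 lower), and Rras and Araf had differences of 0.39 and 0.38. Of 14 Ras activators Gab2, a docking adaptor, rose (1.53 ± 0.10 SE, limma adjusted p = 0.0141) and Rasgrp2, an exchange factor used mainly for Rap, fell (−1.48 ± 0.17, limma adjusted p = 0.0479). Rasgrp3 and Rasgrp1 had differences of 1.20 and −0.64 and did not pass. None of 11 GTPase-activating proteins and DOK adaptors passed (unadjusted p under 0.05 for 2 higher and 2 lower), and Nf1, the partner of the SPRED proteins, and Dok2 had differences of 0.41 and −0.38.

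Among 10 other inhibitors of the pathway Lrig1, which restrains growth factor receptors, rose by 2.58 ± 0.10 (SE, limma adjusted p = 0.00481) on the log2 scale, to 10.21 in Tc17, against 7.63 in Tc1. Errfi1 and the third SPRED gene, Spred3, had differences of −0.86 and 0.60. Of 16 other DUSP genes Dusp7, a cytoplasmic ERK phosphatase of the same class as Dusp6, fell by 0.91 ± 0.09 (SE, limma adjusted p = 0.0308). It read 10.19 in Tc17 sample 1 and 10.17 and 10.24 on both arrays of Tc17 sample 2, against 11.19, 11.06 and 11.02 in Tc1. Dusp3 and Dusp16 had differences of 1.31 and 0.51. None of 18 other ETS genes passed (unadjusted p under 0.05 for 4 higher and 2 lower), with 0.74 for Etv6 and −0.60 for Fli1.

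The list of ERK immediate-early and target genes had a median difference of 0.04, beside −0.013 over all genes. Of 21 measured, 0 passed limma's test (unadjusted p under 0.05 for 4 higher and 0 lower), and 14 differences were above 0. Egr2, an immediate-early transcription factor gene, had a difference of 1.12 ± 0.32 (SE), with 0.89 between its Tc17 samples. Bcl2l11, which encodes the death factor Bim and is known to be lowered by ERK signalling, had −0.98 ± 0.68 (SE). Its arrays overlapped between the groups, and sample 1 minus sample 2 was −1.36 in Tc17 and −1.56 in Tc1. Cic, a repressor that ERK inactivates, is also in the list, so the listed genes do not share 1 direction of response. None of 4 ERK substrate kinases passed (unadjusted p under 0.05 for 1 higher and 0 lower), with −0.38 for Rps6ka5 and 0.26 for Mknk2, and none of 12 JNK and p38 genes (2 higher and 2 lower), with 0.86 for Mapk11 and −0.60 for Map3k5. Of 15 receptor tyrosine kinases Igf1r rose by 1.35 ± 0.10 (SE, limma adjusted p = 0.0199) and Kit by 1.32 ± 0.09 (SE, limma adjusted p = 0.0133), while Fgfr3 and Insr had −0.56 and 0.41. Leaving out Tc17 sample 2 kept Lrig1, Gab2 and Rasgrp2, and leaving out Tc17 sample 1, Tc1 sample 1 or Tc1 sample 2 kept Lrig1 alone of these 6 genes.

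**Figure D4:**
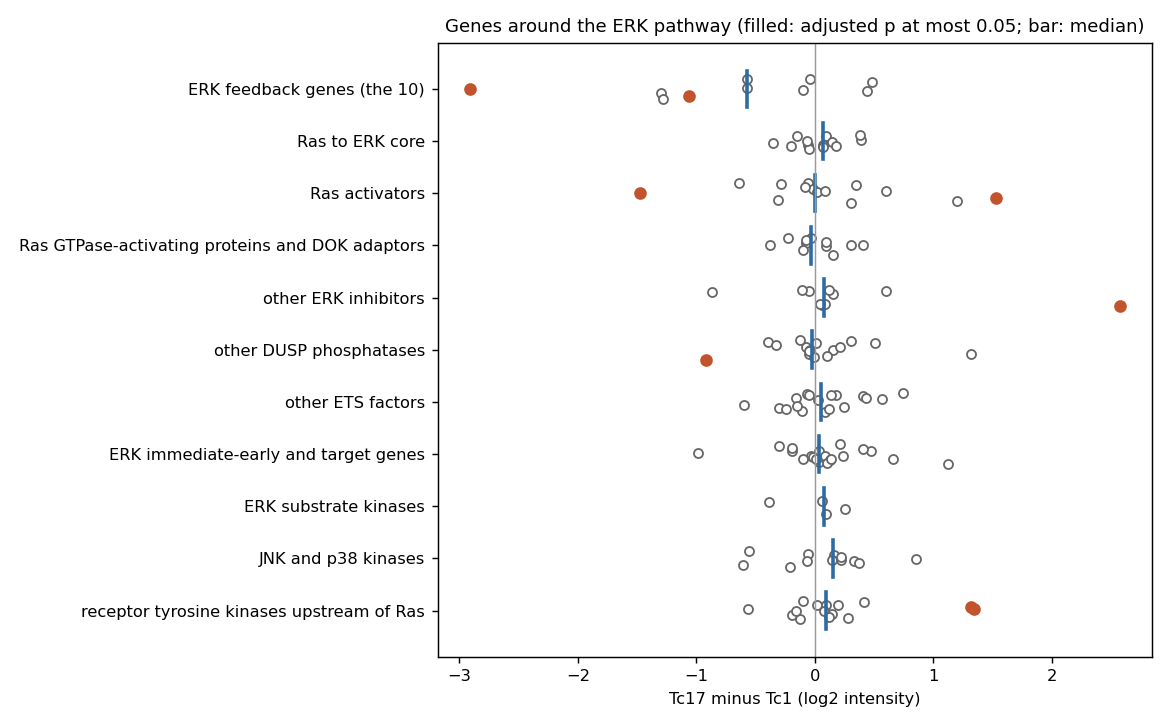
Tc17 minus Tc1 difference in log2 intensity (x axis) of each measured gene, by list, with the 10 ERK feedback genes in the top row. Filled points passed an adjusted p of 0.05 in limma's test, and the blue bar is the median of the list. The medians of the other 10 lists lie between −0.04 and 0.16, and that of the feedback genes, which were chosen on this contrast, at −0.57.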

How the data were processed

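Each array's values were deposited by the authors on the log2 scale, as intensities from RMA; the submitters' processing notes name RMA and Partek without versions. RMA subtracts background, normalizes by quantiles and summarizes probe sets. Neither the set of arrays processed together nor the annotation release and genome build is given in the sources used here. Of 41345 probe sets 23521 had 1 symbol in the platform annotation, 1814 several and 16010 none. The Entrez IDs of all 10 genes matched their RefSeq symbols.

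The technical array was averaged with sample 2. Tc17 minus Tc1 was fitted to all probe sets with limma 3.58.1 in R 4.3.3 (lmFit, eBayes; 2 residual and 2.63 prior degrees of freedom), with no filter. The fit was also run on simulated independent samples with its own variances, which checks the code and not the spread of these samples. The genes and lists were chosen with earlier results of these data known. Named were all 10 genes, the called genes of each list (all where 5 or fewer) and its 2 largest uncalled differences. The 5 genes nearest to Etv5 and to Spred2 were also named, with provisional symbols left out. Neighbouring genes and motifs were looked up afterwards. Alternatives covered the technical array, a replicate block, quantile normalization, median centring, a filter on level, other moderation, left-out samples and averaged probe sets. Figures used matplotlib 3.10.9.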

Additional observations from a re-analysis of the deposited data

How the results depend on the processing

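Counts past the threshold depended on how the samples were read. The main counts were 418 of 41345 probe sets, 2 of the 10 feedback genes and 6 of 134 pathway genes. With 6 separate arrays they were 2318, 5 and 26. With a filter on level, which left fewer probe sets, they were 647, 3 and 8, and the feedback gene gained was Dusp6. An unmoderated linear model, with 2 residual degrees of freedom, called 0, 0 and 0, where 3968 probe sets, 3 feedback genes and 25 pathway genes had an unadjusted p under 0.05. Leaving out 1 sample gave 48 to 125 probe sets, 0 to 1 feedback genes and 1 to 3 pathway genes, in fits with fewer samples that take the lone sample to vary like the other group. With a replicate block the counts were 1535, 6 and 18. The feedback genes gained were Spry2, Spry4, Dusp5 and Dusp6, beside Etv5 and Spry1. As the 10 feedback genes were chosen on this contrast, nothing is read from their counts under any setting. The labels do not say what a shared number means; the deviations of same-numbered samples correlated at 0.31 across probe sets, a single value from 2 pairs. No alternative turned the sign of a feedback gene other than Etv4, and the median of the 10 genes ran from −0.63 to −0.51. Without a detection call, dim probe sets such as Etv4 have no measured floor.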
